A study of Mus musculus with 6 samples.

Results

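The nuclear genes of oxidative phosphorylation were compared between pRb-deficient and pRb-expressing osteoblasts. The set was defined by name: every gene on the array whose single annotated symbol starts with Ndufa, Ndufb, Ndufc, Ndufs, Ndufv, Uqcr, Cox4, Cox5, Cox6, Cox7, Cox8 or Atp5, or is Sdha, Sdhb, Sdhc, Sdhd or Cycs. The rule uses names alone. In all, 91 of the 18193 genes on the array belonged to it, and they were covered by 183 probe sets, a probe set being a group of short probes for 1 transcript. Each gene was represented by its probe set with the highest mean signal over the 6 arrays. By name, 36 genes were counted under complex I, 4 under complex II, 8 under complex III, 17 under complex IV and 17 under complex V, and Cycs encodes the somatic form of cytochrome c. The Ndufa prefix also brought in 8 assembly factors of complex I (Ndufaf1 to Ndufaf8), which are not part of the finished enzyme and are described separately. Ndufa4, now placed in complex IV, and its relative Ndufa4l2 were kept under complex I by their names.

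Oxidative phosphorylation takes place in the inner mitochondrial membrane. Complexes I and II pass electrons from NADH and succinate to ubiquinone, complex III passes them on to cytochrome c, and complex IV gives them to oxygen, while complexes I, III and IV pump protons whose return through complex V makes ATP. Most subunits are nuclear genes spread over nearly all chromosomes, and their products are imported and built together with the few subunits that mitochondrial DNA encodes. In osteoblasts, both glycolysis and respiration supply ATP.

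MC3T3 here means osteoblasts grown from calvariae, the bones of the skull roof, of embryonic day 18.5 mice and immortalized by serial passage under the 3T3 protocol. The pRb-deficient cultures are labelled as an Rb knockout. They were grown from conditional knockout mice, in which the paper describes the gene for pRb as excised in osteoblasts. The pRb-expressing cultures are labelled wild type and were grown from control littermates. The mice carried the floxed allele flox19-RB1 in a C57BL/6 background and were bred with 2.3- and 3.6-Col1a1-Cre transgenes, in which promoter fragments of the type I collagen gene drive Cre in bone-forming cells. RNA of 3 cultures of each kind was hybridized to 1 Affymetrix Mouse Genome array per culture. The labels call them biological replicates and do not say whether they came from separate animals or lines, so p-values here reflect no more than the spread among these cultures, and pRb status cannot be told apart from other differences between the lines. The RNA is of whole cultures, in which fewer cells of a type and less RNA per cell cannot be told apart.

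The signals are MAS5 intensities on a linear scale, scaled by the authors to a trimmed mean of 500 on each array, and array medians were between 107.7 and 119.5. Over all probe sets, arrays correlated at 0.974 to 0.984 within a group and at 0.912 to 0.917 between groups. Rb1, which encodes pRb, had signals of 143.1, 127.1 and 123.5 in the pRb-deficient cultures, against 1123.7, 1118.6 and 1105.9 in the pRb-expressing cultures, and where its probe set lies relative to the deleted part of the gene was not examined. Of 8 measured osteoblast markers, 7 were lower (Sp7, Alpl, Ibsp, Sparc, Col1a1, Col1a2 and Dmp1) and 1 (Phex) was higher, and their summed signal was between 35644 and 47919 in pRb-deficient cultures and between 62198 and 72138 in pRb-expressing cultures. The bone matrix gene Ibsp had signals of 9.2, 0.8 and 0.5 in the pRb-deficient cultures, against 2029.7, 2007.4 and 2894.7 in the pRb-expressing cultures. Of markers of other cell types, the hematopoietic Cd68 and Cd52 were higher (2 of 6, summed signal 761.4 to 924.7 in pRb-deficient cultures and 666.6 to 852.6 in pRb-expressing cultures), the cardiac Myl2 and Nkx2-5 were lower (2 of 4 tested), and no endothelial or fat marker passed. Cardiac markers had signals of at most 172.1 and fat markers of at most 106.3, low on the array, and only 3 of 6 fat markers were tested. Whether these differences in markers have a part in the values below was not tested.

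Among the respiratory genes, more were lower than higher in pRb-deficient osteoblasts, and the lower ones were mostly complex I subunits and complex I assembly factors. At an adjusted p of 0.05 in limma, 42 of 90 members tested were lower and 12 were higher, and 36 did not pass. The remaining member, Cox7b2, was at or below a signal of 32 on all arrays. Over all 16308 genes tested, 23.4% were lower and 18.5% were higher, and over the 9677 of them with a mean signal of 200 or more, a level that 83 of the 91 members also reached, 32.3% were lower and 26.6% were higher. Thus 46.7% of the members tested were lower and 13.3% were higher. The groups did not overlap in 64 of the 90 members (48 lower, 16 higher in all pRb-deficient cultures). This was so for 53.8% of all genes tested and for 69.8% of those with a mean of 200 or more, a share near that of the members. The median log2 fold change of the members, given throughout as pRb-deficient over pRb-expressing, was −0.22. It was −0.09 for all genes tested and −0.07 for those with a mean of 200 or more. Complexes II to V with cytochrome c had a median of 0.04, with 13 of 46 genes tested lower (28.3%) and 5 higher (10.9%). That lower share was under the 32.3% of all genes with a mean of 200 or more. The count of higher members depended on single cultures: it was 3 without pRb-expressing culture 1, 5 without pRb-expressing culture 3, 4 without pRb-deficient culture 2 and 8 without pRb-deficient culture 3. Leaving out each culture in turn gave 34 to 42 lower members.

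**Figure D1:**
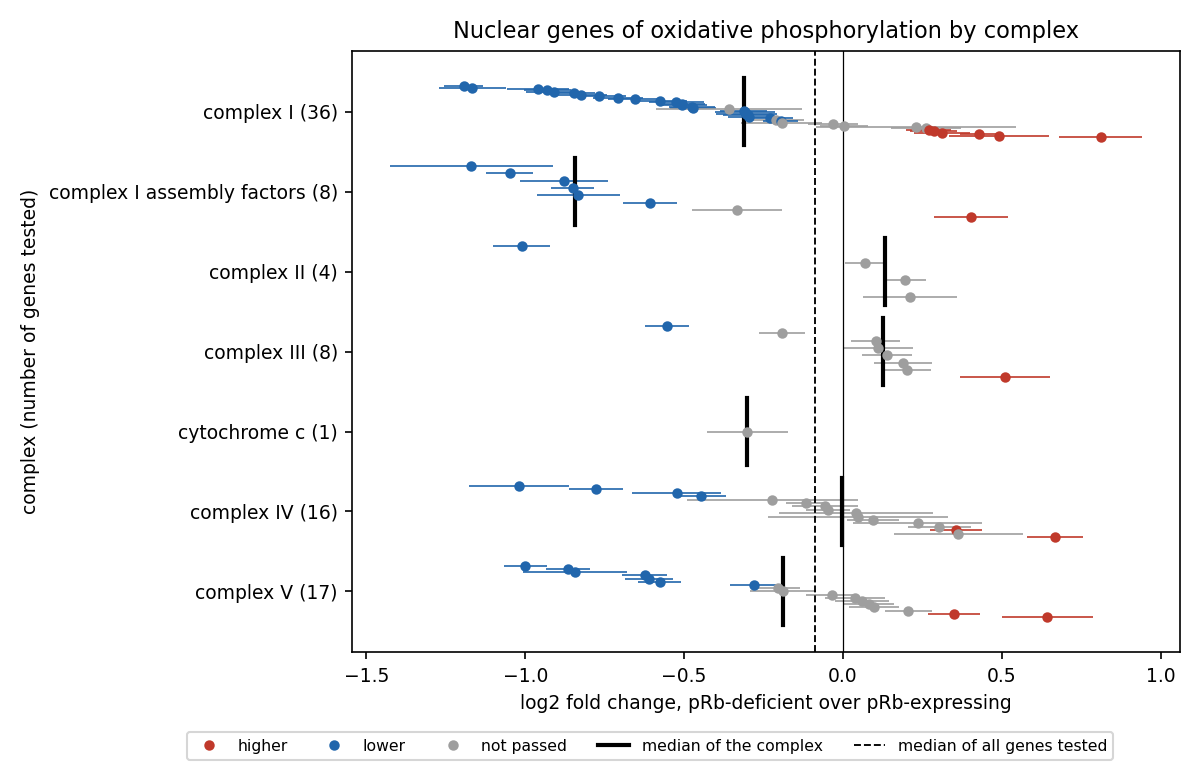
Log2 fold change (x axis, pRb-deficient over pRb-expressing) of the 90 genes tested, by complex; each point is 1 gene with its standard error from limma over 3 against 3 cultures, coloured by its call, the thick line is the median of the complex and the dashed line the median of all genes tested. Points of complex I and of its assembly factors lie mostly to the left of the dashed line, with medians of −0.31 and −0.84, and those of complexes II and III mostly to its right.

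Complex I and its assembly factors were set apart from the pRb-expressing level in each pRb-deficient culture. Relative to the mean of the pRb-expressing cultures, the median log2 deviation of complex I genes was −0.44, −0.35 and −0.34 in the 3 pRb-deficient cultures, against −0.05, 0.05 and −0.01 in the 3 pRb-expressing cultures. For the Ndufaf genes it was −0.94, −0.87 and −0.61 in pRb-deficient cultures and 0.02, −0.02 and −0.06 in pRb-expressing cultures. Complex V was less uniform, at −0.28, −0.15 and 0.01 in pRb-deficient cultures and −0.02, 0.07 and −0.04 in pRb-expressing cultures. Complex IV was at 0.03, −0.04 and −0.05 in pRb-deficient cultures, against −0.01, 0.06 and −0.05 in pRb-expressing cultures, so that its groups overlapped.

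Promoters were compared for letters known to be bound by factors that act on mitochondrial genes or with pRb. RefSeq promoter windows (GRCm38.p6, from 250 bases before to 50 bases after each start) were matched for 75 of the 91 members, and motifs were searched on both strands. The NRF1 motif GCGCATGCG was in windows of 10 of 75 members (13.3%), against 1.95% of all genes with a window and 4.48% of genes with a mean signal of 200 or more. The YY1 motif AAGATGGCG was in 7 of 75 (9.33%), against 1.64% of all genes and 4.02% of genes with a mean of 200 or more. The ETS motif CCGGAAGT was in 5 of 75 (6.67%), against 4.31% and 9.85%. Of the E2F motifs, TTTGGCGC was in 2 of 75 (2.67%), against 0.585% and 1.25%, and TTTCCCGC was in none of the 75, against 1.24% and 2.54%. A match is only a match of letters, and its absence says only that these letters are not in the window.

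The NRF1 motif was in 4 of 37 lower, 1 of 10 higher and 5 of 28 other members with a window, which is too few to compare. The YY1 motif was in 3 of 37 lower, 1 of 10 higher and 3 of 28 other members. Of the members shown next, Atp5k did not pass on its other probe sets (log2 fold changes 0.26 and −0.22). The following stretches show the same letters in members called in opposite directions on their brightest probe sets. The first 3 carry the NRF1 motif, which reads the same on both strands as 1 overlapping run, and show bases 150 to 1 before the start, 5′ to 3′, with the motif in capitals: Atp5g2 was higher, a call lost with chromosome medians removed (chr15:102671048-102671197, minus strand), and Atp5k (chr5:108434400-108434549, minus strand) and Ndufaf4 (chr4:24897933-24898082, plus strand) were lower.
Atp5g2: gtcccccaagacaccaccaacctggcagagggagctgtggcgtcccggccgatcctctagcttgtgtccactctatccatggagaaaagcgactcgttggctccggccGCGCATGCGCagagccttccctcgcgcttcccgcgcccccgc
Atp5k: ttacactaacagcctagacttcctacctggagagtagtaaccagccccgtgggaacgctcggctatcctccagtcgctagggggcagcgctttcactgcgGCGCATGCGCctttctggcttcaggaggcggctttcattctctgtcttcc
Ndufaf4: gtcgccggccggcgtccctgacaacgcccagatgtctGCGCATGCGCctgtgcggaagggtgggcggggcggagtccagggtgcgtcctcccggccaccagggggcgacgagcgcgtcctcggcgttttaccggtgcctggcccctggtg
The E2F motif TTTGGCGC was in 0 of 37 lower, 1 of 10 higher and 1 of 28 other members, too few to compare. Its carriers were Cox5a, a complex IV gene that was higher, and Cox8a, which did not pass (log2 fold change −0.12). Cox5a is shown over the same bases (chr9:57521082-57521231, plus strand), with the motif in capitals, beginning 127 bases before the start.
Cox5a: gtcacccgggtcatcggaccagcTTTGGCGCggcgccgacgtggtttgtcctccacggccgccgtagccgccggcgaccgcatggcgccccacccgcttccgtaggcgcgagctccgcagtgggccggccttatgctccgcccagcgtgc
The YY1 motif, in capitals, lies just after the start in a pair of complex I genes with opposite calls: Ndufa9 was lower (chr6:126849096-126849125, minus strand, from base 20 after the start) and Ndufs7 was higher (chr10:80249463-80249492, plus strand, from base 15 after the start).
Ndufa9: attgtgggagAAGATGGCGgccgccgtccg
Ndufs7: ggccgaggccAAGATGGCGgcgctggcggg

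Complex I, the NADH dehydrogenase, had 23 of 36 genes lower (63.9%), 6 higher and 7 not passed, with a median log2 fold change of −0.31. Without Ndufa4 and Ndufa4l2, 22 of 34 were lower (64.7%), 6 higher and 6 not passed. The largest falls were those of Ndufb2, Ndufa5 and Ndufa9. All 3 lie on chromosome 6, whose median log2 fold change was −0.58. With the median of each chromosome removed, as described below, their log2 fold changes were −0.61, −0.58 and −0.38, and they still passed. Ndufb6 (−0.90), Ndufb5 (−0.87) and Ndufs4 (−0.84) then had larger falls. Ndufb2, an accessory subunit of the membrane arm, had signals of 2208.0, 2295.7 and 2374.0 in the pRb-deficient cultures, against 5105.9, 5407.7 and 5222.6 in the pRb-expressing cultures. The groups were far apart, and the signal was 2.29-fold lower (log2 fold change −1.19, SE, its standard error, 0.06, adjusted p = 2.29e-05 in limma). Ndufa5, an accessory subunit of the matrix arm, had signals of 874.1, 934.1 and 1112.9 in pRb-deficient cultures, against 2116.5, 2335.2 and 2081.8 in pRb-expressing cultures (log2 fold change −1.17, SE 0.11, adjusted p = 2.24e-04). Ndufa9, a matrix-arm subunit that lies near the ubiquinone site and whose start is shown above, had signals of 2217.2, 2233.6 and 2727.9 in pRb-deficient cultures, against 4802.9, 4371.9 and 4726.9 in pRb-expressing cultures (log2 fold change −0.96, SE 0.10, adjusted p = 3.74e-04). In each of these 3 genes every pRb-deficient culture lay below every pRb-expressing culture.

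The largest rises in complex I were those of Ndufa6, Ndufb1 and Ndufs7. Ndufa6, a matrix-arm subunit of the LYR-motif family, had signals of 3388.5, 2976.9 and 2380.5 in pRb-deficient cultures, against 1588.9, 1600.9 and 1747.2 in pRb-expressing cultures, a 1.75-fold higher signal (log2 fold change 0.81, SE 0.13, adjusted p = 0.00285). Ndufs7, the core subunit that holds the iron-sulfur cluster next to ubiquinone, had signals of 3264.9, 3150.4 and 3149.2 in pRb-deficient cultures, against 2290.2, 2416.2 and 2406.7 in pRb-expressing cultures (log2 fold change 0.43, SE 0.06, adjusted p = 0.0014). Neither gene's groups overlapped. Ndufb1, a small membrane-arm subunit, had signals of 330.2, 396.1 and 433.7 in pRb-deficient cultures, against 253.7, 253.4 and 317.8 in pRb-expressing cultures, a log2 fold change of 0.49 (SE 0.16) at an adjusted p of 0.049. Its groups came close to each other, and its call was lost without pRb-expressing culture 1 (adjusted p = 0.153), pRb-expressing culture 2 (0.156), pRb-deficient culture 2 (0.148) or pRb-deficient culture 3 (0.131), and with chromosome medians removed (0.342).

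The nuclear core subunits, most of which carry the flavin or iron-sulfur clusters and which are conserved from bacteria, did not move together. Of the 6 core subunits measured, Ndufs3 (log2 fold change −0.51), Ndufv2 (−0.48), Ndufs1 (−0.31) and Ndufv1 (−0.20) were lower, Ndufs7 was higher as above, and Ndufs8 (−0.21, adjusted p = 0.109) did not pass. With the median of each chromosome removed, as described below, Ndufs3 (log2 fold change −0.18, adjusted p = 0.12) and Ndufv2 (−0.22, adjusted p = 0.0581) no longer passed. The calls of Ndufs1 and Ndufv1 also depended on single cultures. Ndufv1, which binds NADH, had signals of 3056.0, 3056.1 and 3101.4 in pRb-deficient cultures, against 3432.2, 3597.6 and 3529.7 in pRb-expressing cultures, with no overlap, but its 2 other probe sets had log2 fold changes of 0.05 and 0.06 and did not pass. Its adjusted p was 0.0501 without pRb-expressing culture 2, 0.0632 without pRb-expressing culture 3 and 0.0755 without pRb-deficient culture 2. That of Ndufs1 was 0.0553 without pRb-expressing culture 1, 0.051 without pRb-expressing culture 3 and 0.0557 without pRb-deficient culture 2, and with the median of its chromosome removed its log2 fold change turned to 0.19. Sorted by place in the enzyme, 9 of 14 matrix-arm genes were lower and 4 higher (median −0.31), and 12 of 19 membrane-arm genes were lower and 2 higher (median −0.36). Both arms thus held genes of either direction. Ndufb4 and Ndufa4l2, both with mean signals under 100, did not pass. Ndufb4, like Cox7c of complex IV, was represented only by dim probe sets, and whether these measure the main transcript was not tested.

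The 8 assembly factors of complex I had a median log2 fold change of −0.84, with 6 lower, 1 higher and 1 not passed. Ndufaf7, a mitochondrial arginine methyltransferase, had signals of 573.8, 546.5 and 535.0 in pRb-deficient cultures, against 1104.3, 1128.7 and 1194.0 in pRb-expressing cultures (log2 fold change −1.05, SE 0.07, adjusted p = 8.39e-05). Ndufaf1, which acts on intermediates of the membrane arm, had signals of 577.0, 605.1 and 582.4 in pRb-deficient cultures, against 1065.9, 1054.3 and 1062.8 in pRb-expressing cultures (log2 fold change −0.85, SE 0.07, adjusted p = 1.38e-04). In both genes the cultures of a group lay close together and the groups were well apart. Ndufaf4, an early assembly factor whose promoter stretch is shown above, had signals of 577.8, 559.6 and 786.2 in pRb-deficient cultures, against 1220.0, 1148.4 and 1124.7 in pRb-expressing cultures (log2 fold change −0.88, SE 0.14, adjusted p = 0.00263).

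Ndufaf5, which hydroxylates Ndufs7, and Ndufaf8, its partner, were also lower, with log2 fold changes of −0.61 and −0.83, of which that of Ndufaf8 did not pass with chromosome medians removed (−0.31, adjusted p = 0.11). Ndufaf6 had the largest fall of the assembly factors on a lower signal of 118.8, 163.9 and 225.4 in pRb-deficient cultures, against 440.3, 352.5 and 322.1 in pRb-expressing cultures (log2 fold change −1.17, SE 0.26, adjusted p = 0.0113). The groups did not overlap, but the call was lost without pRb-expressing culture 1 (adjusted p = 0.0677), pRb-expressing culture 2 (0.0634) or pRb-deficient culture 2 (0.0569). Ndufaf2, a late factor related in sequence to the subunit Ndufa12, went the other way, with signals of 683.1, 835.0 and 892.6 in pRb-deficient cultures, against 605.9, 628.9 and 577.6 in pRb-expressing cultures (log2 fold change 0.40, SE 0.12, adjusted p = 0.033). This call was lost without any 1 of pRb-expressing cultures 1 (adjusted p = 0.104), 2 (0.0871) and 3 (0.115) or pRb-deficient cultures 2 (0.12) and 3 (0.0829), and with chromosome medians removed (log2 fold change 0.07, adjusted p = 0.673). Ndufaf3, the partner of Ndufaf4, had a log2 fold change of −0.33 and did not pass (adjusted p = 0.116), though it did without pRb-deficient culture 1 (0.0249).

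Complex II, the succinate dehydrogenase that also works in the TCA cycle and has no mitochondrially encoded subunit, had 1 gene lower and 3 that did not pass. Sdhc, one of its membrane anchors, had signals of 1906.4, 2327.1 and 2301.2 in pRb-deficient cultures, against 4309.9, 4401.8 and 4403.6 in pRb-expressing cultures, a 2.02-fold lower signal (log2 fold change −1.01, SE 0.09, adjusted p = 2.03e-04). Its groups were clearly apart. The flavoprotein gene Sdha had signals of 3387.0, 3306.4 and 3073.9 in pRb-deficient cultures, against 2728.7, 2899.8 and 2902.7 in pRb-expressing cultures, and did not pass despite no overlap (log2 fold change 0.19, adjusted p = 0.0608), but did without pRb-deficient culture 3 (0.0268). A further probe set of Sdha was higher (log2 fold change 0.26, adjusted p = 0.0124). The iron-sulfur gene Sdhb was at 4111.4, 4429.5 and 4436.5 in pRb-deficient cultures, against 4111.8, 4189.5 and 4072.9 in pRb-expressing cultures (log2 fold change 0.07, adjusted p = 0.451). The other anchor, Sdhd, was at 1938.2, 2596.7 and 2899.4 in pRb-deficient cultures, against 2058.7, 2262.7 and 2018.4 in pRb-expressing cultures (log2 fold change 0.21, adjusted p = 0.332), and passed without pRb-deficient culture 1 (0.0243). Groups overlapped in both of these genes.

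Complex III, which hands electrons from ubiquinol to cytochrome c, had 1 gene lower, 1 higher and 6 that did not pass, with a median log2 fold change of 0.12. Uqcrc2, a core protein, had signals of 2570.2, 2784.3 and 2761.6 in pRb-deficient cultures, against 4144.3, 3732.0 and 4039.2 in pRb-expressing cultures, with no overlap (log2 fold change −0.55, SE 0.07, adjusted p = 9.61e-04). Uqcr10, a small subunit, had signals of 1721.6, 2186.5 and 1523.6 in pRb-deficient cultures, against 1202.2, 1391.5 and 1184.6 in pRb-expressing cultures (log2 fold change 0.51, SE 0.14, adjusted p = 0.0289). Its groups did not overlap but came near each other, and the call was lost without pRb-expressing cultures 1 (adjusted p = 0.125), 2 (0.0703) or 3 (0.121), or pRb-deficient cultures 1 (0.0847) or 2 (0.0675). The 2 further probe sets of Uqcr10 were also higher, with log2 fold changes of 0.90 (adjusted p = 0.00165) and 2.14 (adjusted p = 7.25e-05). The Rieske gene Uqcrfs1 and the other core gene, Uqcrc1, had log2 fold changes of 0.20 and 0.19 and did not pass. Cycs, whose product carries electrons between complexes III and IV and also takes part in apoptosis, had signals of 7694.8, 9160.7 and 10967.5 in pRb-deficient cultures, against 11610.2, 11322.1 and 10995.1 in pRb-expressing cultures. The highest pRb-deficient culture nearly reached the lowest pRb-expressing one, and Cycs did not pass (log2 fold change −0.30, adjusted p = 0.118). It did without pRb-deficient culture 3 (adjusted p = 0.0225), with array quality weights (0.0109) and with the mean over probe sets (0.0374), and with chromosome medians removed its log2 fold change turned to 0.28.

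Complex IV, cytochrome c oxidase, had 4 genes lower, 2 higher and 10 that did not pass, with a median log2 fold change of −0.003 that was 0.05 with each array centred on its median. Cox7a2l, whose product helps to join complexes III and IV into supercomplexes, had signals of 4086.3, 3283.6 and 2570.6 in pRb-deficient cultures, against 6532.1, 6604.5 and 6665.9 in pRb-expressing cultures (log2 fold change −1.02, SE 0.16, adjusted p = 0.00235). The pRb-deficient cultures were more spread than the pRb-expressing ones, and all of them were lower. The gene's 2 other probe sets were lower as well, with log2 fold changes of −0.78 and −0.86. Cox5b, a subunit on the matrix side, had signals of 5102.9, 5656.9 and 6217.5 in pRb-deficient cultures, against 9596.1, 9797.7 and 9625.6 in pRb-expressing cultures (log2 fold change −0.78, SE 0.08, adjusted p = 4.98e-04). Cox5a, another subunit on the matrix side, went the other way, with signals of 12763.8, 15164.2 and 15331.3 in pRb-deficient cultures, against 9310.9, 8965.2 and 8890.4 in pRb-expressing cultures (log2 fold change 0.67, SE 0.09, adjusted p = 0.00125). In neither gene did the groups overlap.

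Several subunits of complex IV exist as isoforms, some of them typical of muscle, testis or lung. Of the common forms, Cox6b1 was lower (log2 fold change −0.45, adjusted p = 0.00431, and −0.12 and 0.304 with chromosome medians removed), and Cox4i1 (−0.05), Cox6a1 (0.10) and Cox8a (−0.12) did not pass, although a further probe set of Cox6a1 was higher (0.31, adjusted p = 0.0153). Cox7a2, the form of subunit 7a outside muscle, had signals of 13179.2, 14583.5 and 14937.0 in pRb-deficient cultures, against 10784.9, 11860.9 and 10715.0 in pRb-expressing cultures (log2 fold change 0.36, SE 0.08, adjusted p = 0.0134). Its groups did not overlap, and the call was lost without pRb-expressing culture 1 (adjusted p = 0.0667), pRb-expressing culture 3 (0.0573) or pRb-deficient culture 2 (0.064), and with chromosome medians removed (log2 fold change 0.08, adjusted p = 0.505). The muscle forms Cox6a2 (log2 fold change 0.05), Cox7a1 (0.04) and Cox8b (−0.06), the lung form Cox4i2 (−0.22) and the testis form Cox6b2 (0.36) did not pass.

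The signals of some of these tissue isoforms were near the limit of the array. Those of Cox7a1 were between 16.0 and 56.1, those of Cox8b between 4.6 and 36.0, and those of Cox6b2 between 2.5 and 55.3 over the 6 cultures. Cox6a2 was at 452.0, 276.9 and 214.8 in pRb-deficient cultures, against 241.6, 302.3 and 333.7 in pRb-expressing cultures, with overlap. Skeletal muscle markers had a summed signal of 706.7 to 785.1 in pRb-deficient cultures and 731.3 to 902.7 in pRb-expressing cultures, with 1 of 9 tested (Mylpf) lower and none higher. The brown fat gene Ucp1 was under 32 in every culture. Cox8c, known as the testis form of subunit 8, was lower on its brightest probe set, with signals of 804.9, 1032.1 and 1111.2 in pRb-deficient cultures, against 1295.8, 1341.2 and 1578.7 in pRb-expressing cultures (log2 fold change −0.52, SE 0.14, adjusted p = 0.0251). That call is uncertain, since its other, dimmer probe set had a log2 fold change of 0.61 that did not pass, and the call was lost without pRb-expressing cultures 1 (adjusted p = 0.0692), 2 (0.0927) or 3 (0.106) or pRb-deficient culture 2 (0.0741). Ndufa4, named as a complex I subunit but now placed in complex IV, was lower (log2 fold change −0.71, adjusted p = 5.31e-04), at 4909.2, 4959.5 and 5523.9 in pRb-deficient cultures, against 8222.3, 8926.7 and 8001.0 in pRb-expressing cultures. With the median of chromosome 6 removed, its log2 fold change was −0.13 and did not pass (adjusted p = 0.269).

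**Figure D2:**
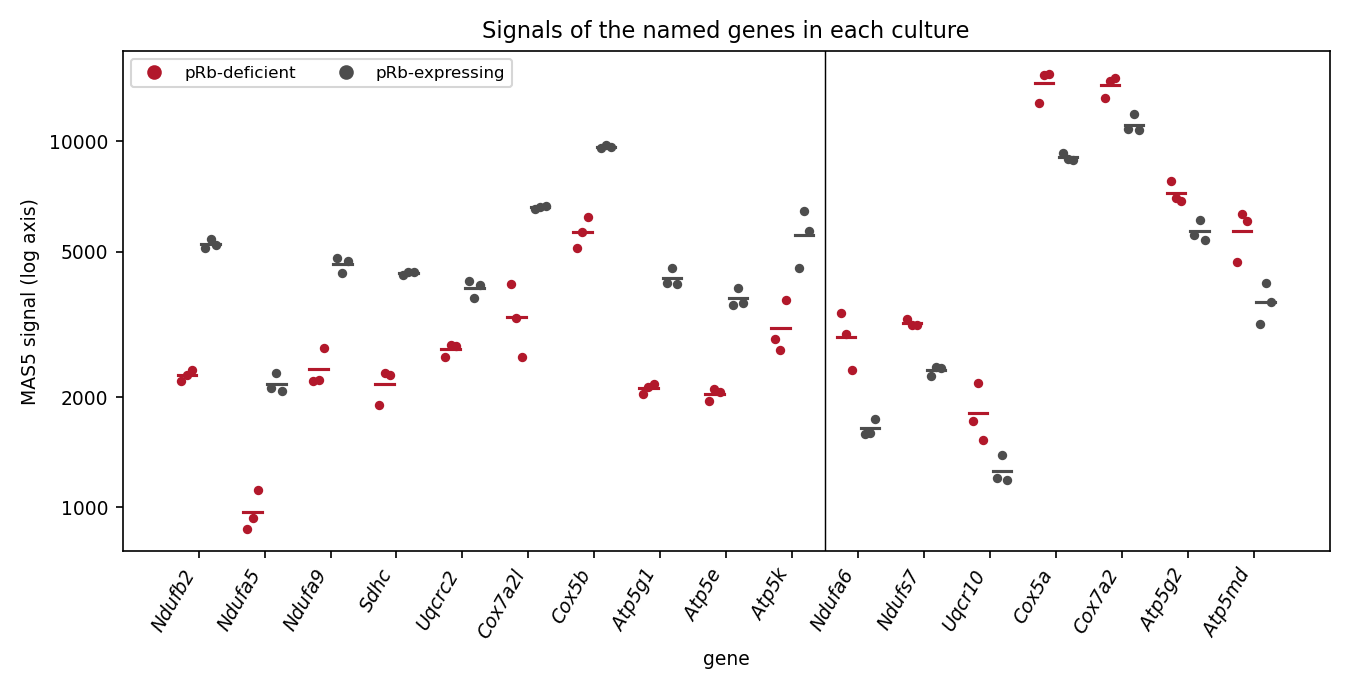
MAS5 signal (y axis, log scale) of 17 named genes in each culture, pRb-deficient in red at the left and pRb-expressing in grey at the right of each gene; points are single cultures and bars their mean (n = 3 each). In the 10 genes left of the vertical line all pRb-deficient cultures lie below the pRb-expressing ones, as for Sdhc, and in the 7 to its right they lie above, as for Cox5a.

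Complex V, the ATP synthase, had 7 of 17 genes lower, 2 higher and 8 that did not pass, with a median log2 fold change of −0.19. That median was −0.09 without pRb-deficient culture 1 and −0.10 with quantile normalization. The 3 genes of subunit c, which form the ring that turns in the membrane and encode the same mature protein, went in different directions. Atp5g1 had signals of 2036.9, 2132.0 and 2170.7 in pRb-deficient cultures, against 4105.1, 4504.5 and 4076.8 in pRb-expressing cultures, a 2.00-fold lower signal (SE 0.07 on the log2 scale, adjusted p = 6.84e-05). Atp5g3 had signals of 11881.8, 12845.8 and 12943.4 in pRb-deficient cultures, against 15029.2, 16140.9 and 14559.7 in pRb-expressing cultures (log2 fold change −0.28, SE 0.08, adjusted p = 0.0257). Atp5g2, whose promoter stretch is shown above, had signals of 7817.7, 6996.6 and 6864.1 in pRb-deficient cultures, against 5563.0, 6085.9 and 5377.3 in pRb-expressing cultures (log2 fold change 0.35, SE 0.08, adjusted p = 0.0149). None of the 3 genes had overlapping groups. The calls of Atp5g3 and Atp5g2 were less secure than that of Atp5g1: Atp5g3 was lost without pRb-expressing culture 1 (adjusted p = 0.0781), pRb-expressing culture 2 (0.076) or pRb-deficient culture 2 (0.0712), and Atp5g2 without pRb-expressing culture 1 (0.0691) or 3 (0.0622). With the medians of their chromosomes removed, the log2 fold changes of Atp5g3 and Atp5g2 turned to 0.05 and −0.003.

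Of the other ATP synthase genes, Atp5e, the epsilon subunit of the rotor, had signals of 1951.1, 2112.3 and 2060.5 in pRb-deficient cultures, against 3576.5, 3966.3 and 3624.7 in pRb-expressing cultures (log2 fold change −0.87, SE 0.07, adjusted p = 1.34e-04). Atp5o and Atp5h of the outer stalk and Atp5c1 of the rotor were lower by smaller amounts, with log2 fold changes of −0.62, −0.58 and −0.61. With chromosome medians removed, Atp5o (−0.19, adjusted p = 0.0793) and Atp5h (−0.06, adjusted p = 0.565) no longer passed, while Atp5c1 did (−0.28, adjusted p = 0.0283). The catalytic head genes Atp5a1 and Atp5b had log2 fold changes of 0.08 and 0.21 and did not pass. Atp5k, which encodes subunit e, needed for pairing of the enzyme, had signals of 2891.3, 2692.6 and 3676.4 in pRb-deficient cultures, against 4522.4, 6455.8 and 5678.3 in pRb-expressing cultures (log2 fold change −0.84, SE 0.16, adjusted p = 0.00657). The groups did not overlap on that probe set, but the 2 other probe sets of Atp5k had log2 fold changes of 0.26 and −0.22 and did not pass. Atp5md, a small membrane subunit, was higher, with signals of 4675.3, 6343.9 and 6071.8 in pRb-deficient cultures, against 3170.2, 4105.3 and 3630.0 in pRb-expressing cultures (log2 fold change 0.64, SE 0.14, adjusted p = 0.0122). Its groups did not overlap, yet the call was lost without pRb-expressing cultures 1 (adjusted p = 0.0681) or 3 (0.0613) or pRb-deficient cultures 2 (0.0674) or 3 (0.0574).

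Most further bright probe sets of the called members gave the same call. In the called members, 43 further probe sets had a mean signal of 200 or more, and 33 of them had the same call as the brightest, none had the opposite call and 10 did not pass. In members that did not pass, 21 further probe sets were as bright, of which 3 (of Cox6a1, Sdha and Uqcrh) were higher and 1 (of Atp5j2) was lower. A further probe set of Ndufs4, with a mean of 145.9, was higher (log2 fold change 0.64), while its brightest was lower (−0.51). In 39 members there was only 1 probe set, so no such comparison could be made.

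The members' values varied with the chromosome on which they lie. Whole chromosomes differed between the pRb-deficient and pRb-expressing lines: over genes with a mean signal of 200 or more, the median log2 fold change was −0.58 on chromosome 6, −0.52 on chromosome 11 and −0.50 on chromosome 1, and 0.35 on chromosome 15, 0.33 on chromosome 13 and 0.28 on chromosome 9. Of 41 members tested on chromosomes with a median below 0, 31 were lower, 1 (Uqcr10) was higher and 9 did not pass, where 53.4% of all genes with a mean of 200 or more on these chromosomes were lower and 9.58% higher. The 49 members on chromosomes with a median above 0 comprised 11 lower, 11 higher and 27 that did not pass, where 17.3% of such genes were lower and 38.9% higher. All 6 members on chromosome 17 and all 5 on chromosome 1 were lower, and of the 4 on chromosome 15, 3 were higher and none lower. Of such genes on these chromosomes, 40.6% were lower on chromosome 17, 59.3% were lower on chromosome 1 and 50% were higher on chromosome 15. As a description across genes, which share arrays and neighbours, the members' log2 fold changes correlated with the median of their chromosome at r = 0.614 (Spearman's rho 0.624, n = 90), and those of all genes with a mean of 200 or more at r = 0.306 (rho 0.439, n = 9647).

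**Figure D3:**
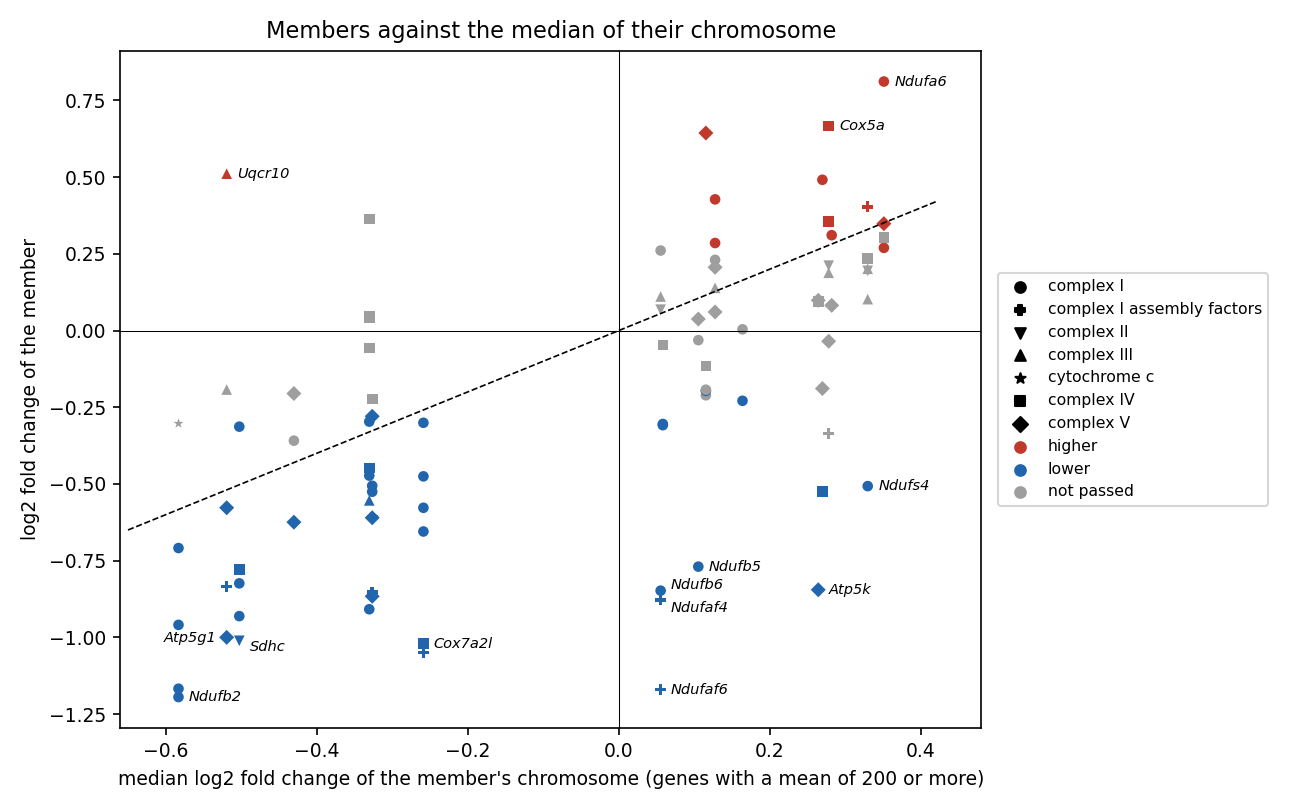
Log2 fold change of each of the 90 members tested (y axis, pRb-deficient over pRb-expressing) against the median log2 fold change of its chromosome over genes with a mean signal of 200 or more (x axis); symbols show the complex, colours the call, and the dashed line equal values. Points on the left, on chromosomes with a median below 0, are mostly lower, whereas Ndufb6, Ndufb5, Ndufs4, Atp5k, Ndufaf4 and Ndufaf6 lie far below the line at the right and Uqcr10 far above it at the left.

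With the median of each chromosome removed, 34 members were lower and 8 higher, and the median log2 fold change of the members was −0.15. In the same fit 19.4% of all genes tested were lower and 19.6% higher, and of those with a mean of 200 or more 24.3% were lower and 24.8% higher. Of the 42 lower members 29 kept their call, and of the 12 higher members 5 did. Complex I then had 16 genes lower, 2 higher and 18 not passed, with a median of −0.21, and 6 of the 8 assembly factors were lower (Ndufaf8 having lost its call and Ndufaf3 gained one, adjusted p = 0.0173), whereas the median of complex III turned to −0.04. On chromosomes with a median below 0, 16 of 17 complex I genes were lower. On chromosomes with a median above 0, 7 of 19 complex I genes were lower and 6 higher. Among these 7 were Ndufb6 of the membrane arm, at 3286.5, 3540.0 and 3654.4 in pRb-deficient cultures, against 6461.7, 6243.9 and 6140.1 in pRb-expressing cultures (log2 fold change −0.85, adjusted p = 1.19e-04), and Ndufb5, at 2650.5, 3018.8 and 3131.2 in pRb-deficient cultures, against 4710.5, 4954.2 and 5315.5 in pRb-expressing cultures (−0.77, adjusted p = 5.82e-04). Their groups were well apart, although the medians of their chromosomes, 4 and 3, were 0.06 and 0.11. These 2 genes were chosen after their values were seen. How much of a member's change is shared with its chromosome because of the lines' histories was not tested.

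Other mitochondrial gene lists were counted in the same way, 1 probe set a gene. Over all genes with a mean of 200 or more, 32.3% were lower and 26.6% higher, as given above. Assembly factors outside the Ndufaf genes had 16 of 38 lower and 4 higher (median log2 fold change −0.19). Coa3, an early assembly factor of complex IV, had signals of 1174.8, 1205.7 and 1180.0 in pRb-deficient cultures, against 3750.7, 3997.1 and 3770.1 in pRb-expressing cultures, a fall past that of any of the 90 members tested (log2 fold change −1.69, SE 0.06, adjusted p = 5.79e-06). Coa5, another complex IV factor (−1.01, adjusted p = 7.93e-05), and Tmem70, a complex V factor (−0.76, adjusted p = 2.59e-04), were also lower. The TCA cycle and pyruvate entry, which feed complexes I and II, had 7 of 17 lower and 5 higher (median −0.01). Fumarase, Fh1, the step after succinate dehydrogenase, had signals of 1303.5, 1314.2 and 1428.7 in pRb-deficient cultures, against 3364.4, 3686.3 and 3220.5 in pRb-expressing cultures (log2 fold change −1.34, SE 0.08, adjusted p = 3.54e-05). Suclg1 (−0.86) and Suclg2 (−1.04), subunits of succinyl-CoA ligase, the step before succinate dehydrogenase, were lower. The groups of Coa3 and Fh1 were wide apart.

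The mitochondrial ribosome, which makes the mitochondrially encoded subunits, had 37 of 77 genes lower (48.1%) and 11 higher, with a median of −0.27. Mrpl50 (−1.16, adjusted p = 1.15e-04), Mrpl23 (−0.98, adjusted p = 7.36e-05) and Mrpl58 (−0.96, adjusted p = 1.49e-04) were its genes with the lowest adjusted p. Protein import had 5 of 22 lower (22.7%) and 8 higher (36.4%), with a median of −0.09. Timm8a1 was higher (0.89) and Timm10b (−0.97) and Timm22 (−0.71) were lower. Among regulators of mitochondrial biogenesis, 5 of 17 were lower (29.4%) and 1 higher (5.88%), with a median of −0.20. Ssbp1, which binds single strands of mitochondrial DNA, was at −0.58, the methyltransferase Tfb1m at −0.80 and the factor Yy1, whose motif is shown above, at 0.40. Of carriers and coupling proteins, 3 of 9 tested were lower (33.3%) and 2 higher (22.2%), among them the outer membrane channels Vdac1 (−0.67) and Vdac3 (0.45). The lower shares of the regulators and of the carriers lay near that of all genes with a mean of 200 or more. The creatine kinase gene Ckmt1 had signals of 52.6, 30.0 and 41.0 in pRb-deficient cultures, against 109.6, 128.9 and 123.2 in pRb-expressing cultures (log2 fold change −1.55, adjusted p = 0.00189), all of them low on the array. With the median of each gene's chromosome subtracted, the list medians were −0.17 for assembly factors, −0.25 for the TCA cycle and pyruvate entry, and −0.06 for the mitochondrial ribosome. They were 0.21 for protein import, 0.0025 for biogenesis regulators and −0.05 for carriers and coupling proteins. With chromosome medians removed, the log2 fold change of Ssbp1 turned to 0.003, and Yy1 (0.13, adjusted p = 0.147), Timm22 (−0.19, adjusted p = 0.051) and Vdac1 (−0.15, adjusted p = 0.193) no longer passed.

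**Figure D4:**
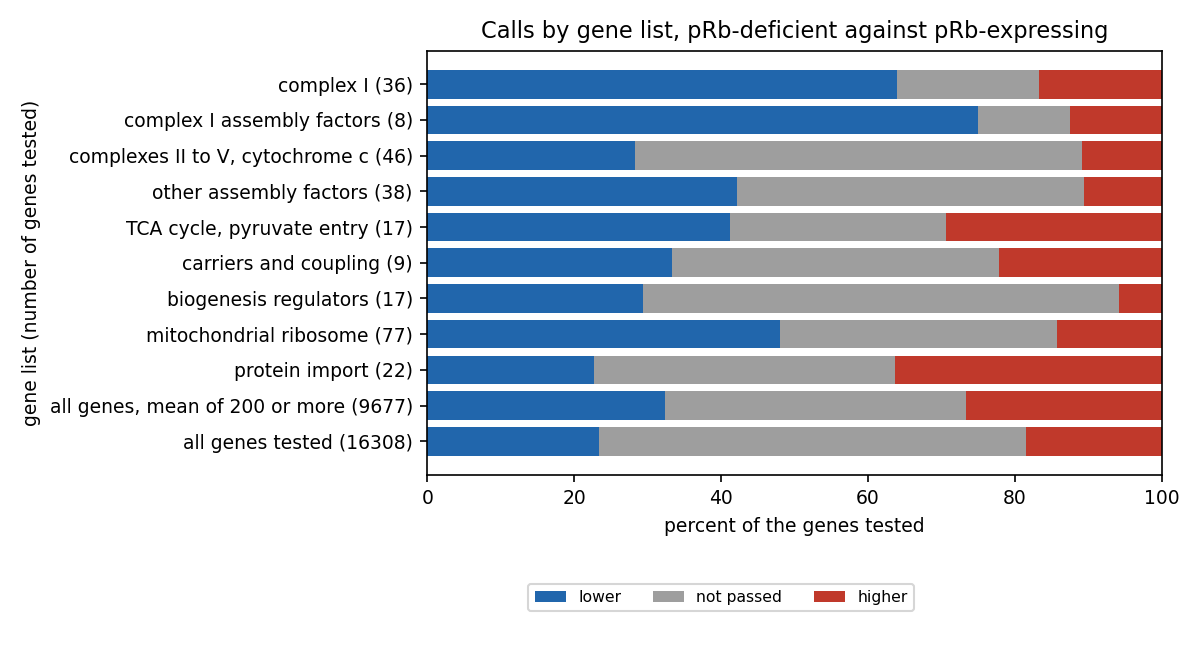
Percent of the genes tested in each list (x axis) that were lower, not passed or higher in pRb-deficient against pRb-expressing cultures at an adjusted p of 0.05 from limma (n = 3 cultures each), with all genes tested in the last 2 bars. Complex I and its assembly factors have the longest lower parts, 63.9% and 75.0%, beside 32.3% and 23.4% in the 2 bars of all genes.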

How the data were processed

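RNA of 3 pRb-deficient and 3 pRb-expressing cultures was measured on 1 array each. The authors deposited intensities, which are MAS5 signals (Affymetrix Expression Console 1.1 in the submitters' processing notes) scaled to a trimmed mean of 500; detection calls and probe-level files were not used here. The number of arrays limits the precision. Of 45101 probe sets, 64 controls and 6610 at or below 32 on all arrays were left out, and on each array 24.4% to 26.6% were at or below 32. Values under 32 were set to 32, and log2 values were tested with limma 3.58.1 under R 4.3.3 (functions lmFit and eBayes, trend on), which left 4 residual degrees of freedom. The two-sided p-values were adjusted (Benjamini-Hochberg) over 38427 probe sets. The methods' Wilcoxon test cannot give an exact p below 0.10 with 3 against 3 cultures. Genes were named from the platform annotation (34945 probe sets with 1 symbol, 932 with several and 9160 with none), and chromosomes, promoters and coordinates come from RefSeq GRCm38.p6, whereas a build for the arrays is not given in the sources used here. The fit was run on simulated data with seeded changes, drawn independently for each probe set and without the chromosome-wide shifts seen here. No result above rests on that run.

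Members and lists were chosen with earlier results of these data known, and the arms of complex I were assigned after the values were seen. Named in full were, in complexes I, III, IV and V, up to 3 genes with the largest rises and falls among those past the threshold with no overlap and a mean of 200 or more in the higher group, all genes of complex II, Cycs, isoform groups, and up to 3 genes a list with the lowest adjusted p. Other genes were added after their values were seen. Replicate numbers were not taken as pairs. Alternatives were other floors, a pseudocount, another filter, quantile normalization, median centring, removal of chromosome medians, no trend, array weights, averages over probe sets, the replicate block and leaving out each array.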

Additional observations from a re-analysis of the deposited data

How the results depend on the processing

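The excess of lower over higher members held under every alternative, with 33 to 47 lower and 3 to 21 higher. The 12 higher members became 6 without an intensity trend and 21 with array quality weights, and 3 to 13 when single arrays were left out. Leaving out single arrays gave 34 to 42 lower members and medians of −0.24 to −0.20 for all members, −0.37 to −0.27 for complex I, 0.09 to 0.18 for complex III, −0.0842 to 0.0361 for complex IV and −0.22 to −0.09 for complex V. Median centring moved the medians of all members, complex I and complex IV to −0.16, −0.25 and 0.054, and removal of chromosome medians moved them to −0.15, −0.21 and −0.0713, with complex III at −0.0391. With chromosome medians removed, the signs of Atp5g2 (−0.0028), Atp5g3 (0.0472), Ndufs1 (0.19) and Ssbp1 (0.0025) turned among the named genes with a call, and with the mean over probe sets that of Cox8c (0.0424). With that mean, Atp5g1 (adjusted p = 0.053), Atp5g2 (0.353), Atp5k (0.191), Ndufs4 (0.588) and Ndufv1 (0.709) no longer passed. With chromosome medians removed, the signs of 24 members turned, 17 of them in genes that passed in neither fit. The cause of these changes was not tested. Over 71 named genes and 17 alternatives, 1103 of 1197 values kept their call, and 40 genes did so under every alternative. A turn of sign in a gene that passed in neither fit was not counted as a change. With the replicate block, 37 members were lower and 10 higher, and the medians were as without it; after removal of group means, same-numbered arrays correlated at 0.02, −0.03 and 0.06, so no pairing was seen. Signals near 32 (Cox7a1, Cox8b, Cox6b2) limit what a fit on floored values can show, and Cox6b2 passed with chromosome medians removed (0.69, adjusted p = 0.0418).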
